A study of Mus musculus with 8 samples.

Results

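Cell cycle and DNA replication genes were followed in calvarial osteoblastic cells of the mouse as a readout of proliferation. They were chosen by gene symbol, with earlier results of these data known. The list held 45 genes of the 24421 in the files, of which 19 act in S phase and 26 in mitosis. All 45 passed a filter on low values, a mean of at least 1 CPM in any group. The cells had been taken by enzymatic digestion from the skull vault of newborn C57BL/6 mice. They came either from wild type (WT) mice or from mice without Def6 (Def6-/-), a gene best known from T cells, and were primary cultures rather than a clone. Each genotype was sequenced at day 0 and at day 12 of culture in osteogenic medium, α-MEM with fetal bovine serum, ascorbic acid and β-glycerophosphate, which makes osteoblast precursors differentiate and lay down mineral. Before that, the cells had been expanded in α-MEM with serum but without ascorbic acid. Exposure to osteogenic medium and time in culture thus went together and cannot be told apart. The 4 groups were therefore WT day 0, Def6-/- day 0, WT day 12 and Def6-/- day 12, with 2 libraries each, named replicate 1 and replicate 2. The labels do not say which mice or litters a library came from, so the p-values measure the spread between these libraries only.

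A cell that divides first licenses its replication origins by loading the Mcm2 to Mcm7 helicase with the help of Cdc6 and Cdt1, then fires them with Cdc45 and the GINS complex once E-type cyclins have activated their kinase, and copies its DNA behind the sliding clamp Pcna from nucleotides that enzymes such as Rrm2 supply. The genes for these steps are switched on together by E2F transcription factors in late G1. Genes of mitosis (the B-type cyclins and Cdk1, the Aurora and Polo kinases, spindle motors, centromere proteins) peak later, in G2 and M, and many are controlled through CCAAT boxes, bound by NF-Y, and a cell cycle homology region (CHR), bound by the DREAM and MuvB complexes. In bone, precursors proliferate before they differentiate, and the cell cycle is known to be left as matrix is made.

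Def6 itself had 147 and 112 reads in the WT libraries of day 0 and 186 and 137 in those of day 12, against 0 and 1 in Def6-/- day 0 and 2 and 2 in Def6-/- day 12, so every library bore out its genotype label. Libraries held 2414856 to 3482837 reads on genes. Levels are given as normalized CPM, which is CPM computed over the reads on genes and scaled with TMM factors, and differences as log2 fold changes of normalized CPM + 1, a scale on which weakly expressed genes appear to change less than they did. The members had 6 to 572 reads per library (median 76.5) in the S phase list and 7 to 559 (median 56.5) in the mitotic list. The osteoblast label was borne out by its markers. Their summed level was 36477 to 51977 normalized CPM at day 0 and 95360 to 133488 at day 12, led by the collagen genes Col1a1 and Col1a2, while Bglap and Bglap2, which encode osteocalcin, were at 0 in all day 0 libraries and present in all of day 12. WT day 0 was the group whose libraries were least alike: 1125 of 12348 genes tested were over 2-fold higher in its replicate 2 and 1264 were under 0.5 of replicate 1, against 277 and 177 genes in Def6-/- day 0. Between-gene differences in level are not compared, because CPM is not scaled to gene length.

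Promoter sequences are shown because the motifs named above were found at different shares of the S phase and the mitotic promoters. RefSeq promoters on GRCm38.p6, the assembly also called mm10, run from 250 bases before to 50 after the start of transcription, and 16 of 19 S phase genes and 21 of 26 mitotic genes had one. Ccne2, Mcm4, Gins2, Ccna2, Aurkb, Kif20a, Tpx2 and Foxm1 had none. Both strands were searched for an E2F core (the letters TTCCCGC, the form TTGGCGC, the form TTCGCGC and the form TTGCCGC, whose matches can overlap), for CCAAT, and for a CHR (TTTGAA or TTTAAA). An E2F core lay in 9 of 16 S phase promoters (56.2%) and 3 of 21 mitotic promoters (14.3%), against 9.69% of all 27025 promoters and 17.3% of the 9431 of genes tested. CCAAT lay in 56.2% of S phase and 85.7% of mitotic promoters (37.9% of all), and a CHR in 37.5% and 85.7% (27.8% of all). CCAAT and a CHR together lay in 17 of 21 mitotic promoters (81.0%) and 4 of 16 S phase promoters (25.0%), against 10.9% of all promoters and 7.42% of those tested. These are matches of letters and not shown to be bound sites, and the members had been picked for known roles. The 3 S phase genes with an entry that had the largest fall in WT cells (Cdc6, Rrm2 and Ccne1) are printed here, with Mcm6 as the S phase promoter with the most E2F cores. Capitals mark every match to any of the 3 motifs, and where 2 matches overlap they form 1 run of capitals.
Cdc6: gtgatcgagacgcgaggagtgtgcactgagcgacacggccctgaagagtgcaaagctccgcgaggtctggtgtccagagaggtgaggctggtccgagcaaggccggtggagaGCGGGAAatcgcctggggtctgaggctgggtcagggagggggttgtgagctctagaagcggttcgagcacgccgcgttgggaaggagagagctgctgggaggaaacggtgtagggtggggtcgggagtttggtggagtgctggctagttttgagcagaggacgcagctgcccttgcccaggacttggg
Rrm2: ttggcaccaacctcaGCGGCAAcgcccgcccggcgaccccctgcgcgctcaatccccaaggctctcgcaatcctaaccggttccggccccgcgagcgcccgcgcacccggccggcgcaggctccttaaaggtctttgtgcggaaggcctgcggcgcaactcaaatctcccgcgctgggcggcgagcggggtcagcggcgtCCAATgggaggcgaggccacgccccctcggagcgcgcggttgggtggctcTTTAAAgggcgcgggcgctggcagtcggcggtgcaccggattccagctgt
Ccne1: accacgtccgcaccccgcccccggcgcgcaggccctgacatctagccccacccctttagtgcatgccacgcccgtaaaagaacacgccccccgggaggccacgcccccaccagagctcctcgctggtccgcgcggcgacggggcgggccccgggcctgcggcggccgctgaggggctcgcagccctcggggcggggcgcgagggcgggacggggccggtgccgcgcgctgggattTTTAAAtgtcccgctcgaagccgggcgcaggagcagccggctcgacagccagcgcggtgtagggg
Mcm6: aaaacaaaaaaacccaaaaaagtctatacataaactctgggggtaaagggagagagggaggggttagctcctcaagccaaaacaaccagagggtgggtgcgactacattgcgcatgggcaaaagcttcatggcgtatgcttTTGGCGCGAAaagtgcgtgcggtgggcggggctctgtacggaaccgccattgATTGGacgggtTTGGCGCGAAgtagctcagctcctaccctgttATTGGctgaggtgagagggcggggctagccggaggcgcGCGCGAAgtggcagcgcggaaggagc
The windows are chr11:98907901-98908200, plus strand for Cdc6, chr12:24708004-24708303, plus strand for Rrm2, chr7:38107441-38107740, minus strand for Ccne1 and chr1:128359656-128359955, minus strand for Mcm6. Cdc6 held 1 E2F core. Rrm2 held 1 E2F core, 1 CCAAT and 1 CHR, and Mcm6 held 5 E2F cores, 4 of them in 2 overlapping pairs, and 2 CCAAT. Ccne1 had no E2F core of these letters in the window and a single CHR match.

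Of the mitotic genes, the 3 with an entry that had the largest fall in WT cells were Mybl2, Birc5 and Aurka. Top2a is shown beside them with 6 CCAAT and 2 CHR matches, the most of these motifs in any mitotic promoter, and was picked after the matches had been counted, as Mcm6 was.
Mybl2: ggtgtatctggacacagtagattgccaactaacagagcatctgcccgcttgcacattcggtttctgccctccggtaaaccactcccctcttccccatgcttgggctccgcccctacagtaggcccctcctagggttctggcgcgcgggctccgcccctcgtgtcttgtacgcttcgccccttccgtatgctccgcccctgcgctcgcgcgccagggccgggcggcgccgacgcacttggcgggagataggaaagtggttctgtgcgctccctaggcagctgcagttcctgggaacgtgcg
Birc5: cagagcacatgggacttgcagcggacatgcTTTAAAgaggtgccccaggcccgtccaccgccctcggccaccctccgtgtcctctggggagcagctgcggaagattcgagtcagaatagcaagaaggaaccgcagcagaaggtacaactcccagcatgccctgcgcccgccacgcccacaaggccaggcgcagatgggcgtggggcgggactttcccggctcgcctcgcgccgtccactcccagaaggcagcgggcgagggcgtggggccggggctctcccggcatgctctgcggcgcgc
Aurka: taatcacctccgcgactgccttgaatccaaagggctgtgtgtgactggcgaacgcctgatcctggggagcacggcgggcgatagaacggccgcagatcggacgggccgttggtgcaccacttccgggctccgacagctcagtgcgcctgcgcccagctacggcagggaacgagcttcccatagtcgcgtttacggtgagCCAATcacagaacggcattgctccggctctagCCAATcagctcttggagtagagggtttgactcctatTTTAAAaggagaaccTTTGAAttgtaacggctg
Top2a: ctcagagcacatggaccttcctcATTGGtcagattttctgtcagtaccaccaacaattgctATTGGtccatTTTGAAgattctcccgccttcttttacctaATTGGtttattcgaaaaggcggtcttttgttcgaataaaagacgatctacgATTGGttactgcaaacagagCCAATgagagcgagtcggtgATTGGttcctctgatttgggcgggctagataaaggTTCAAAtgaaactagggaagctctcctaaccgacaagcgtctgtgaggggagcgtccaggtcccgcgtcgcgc
The windows are chr2:163054385-163054684, plus strand for Mybl2, chr11:117848987-117849286, plus strand for Birc5, chr2:172370521-172370820, minus strand for Aurka and chr11:99024140-99024439, minus strand for Top2a. Aurka held 2 CCAAT and 2 CHR matches, Birc5 held 1 CHR, and Mybl2 held no match to the letters searched.

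S phase genes were lower at day 12 in both genotypes. In WT cells all 19 had a lower mean at day 12, with a median log2 fold change of -0.92 against -0.000955 over all genes tested, and 8 of them fell at an adjusted p under 0.05. The share of all 12348 genes tested that fell by the same rule was 5.63%. The libraries of the 2 days did not overlap for 18 of 19 S phase genes, each lower at day 12, where 26.6% of all genes were. The mean level of the list, as log2(normalized CPM + 1), was 5.07 and 5.62 in WT day 0, 4.49 and 4.35 in WT day 12, 5.01 and 5.40 in Def6-/- day 0 and 4.30 and 4.54 in Def6-/- day 12, so that each day 12 library lay below each day 0 library. In bulk RNA, fewer cycling cells and less of these transcripts per cell cannot be told apart.

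**Figure D1:**
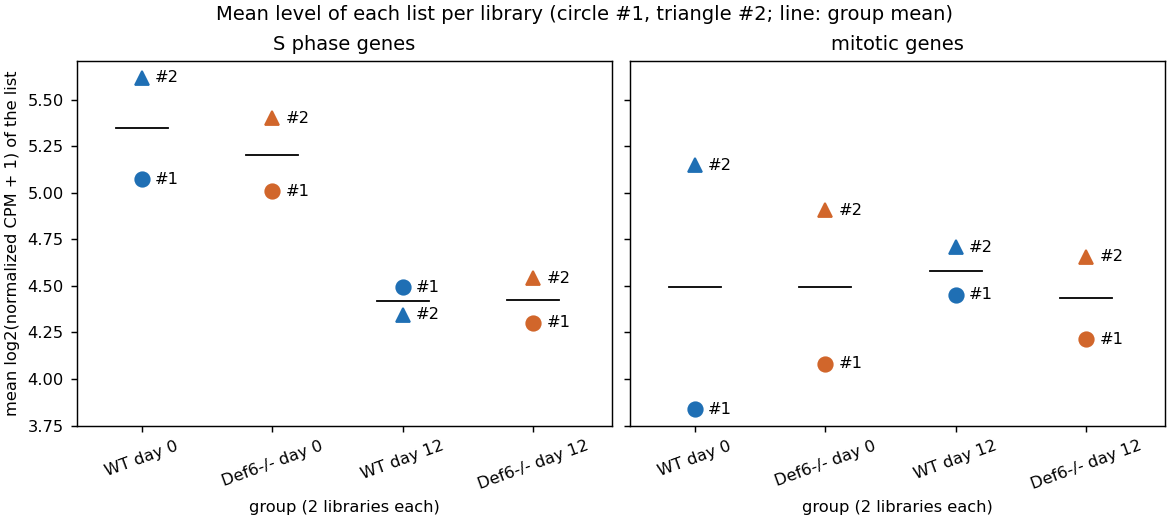
Mean log2(normalized CPM + 1) of the 19 S phase genes (left) and the 26 mitotic genes (right) in each of 8 libraries, by group; circles are replicate 1, triangles replicate 2, and lines the mean of 2 libraries. S phase means lie between 5.01 and 5.62 at day 0 and between 4.30 and 4.54 at day 12, while mitotic means span 3.84 to 5.15 within WT day 0 alone.

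Genes of origin licensing and the helicase were lower throughout, 10 of 10 in either genotype, with 4 called in WT and 5 in Def6-/-. Cdc6, which loads the helicase at origins, was at 13.4 and 15.9 in the 2 WT day 0 libraries, 5.45 and 2.51 at WT day 12, 11.7 and 12.9 at Def6-/- day 0 and 4.11 and 4.27 at Def6-/- day 12, in normalized CPM. All 4 day 12 libraries lay below all 4 day 0 libraries, and Cdc6 had the largest WT fall of any S phase gene, a log2 fold change of -1.71 ± 0.34 (SE; adjusted p = 0.0097), with -1.36 ± 0.34 in Def6-/- cells (adjusted p = 0.0281). It rested on only 6 to 45 reads a library. Its partner Cdt1 fell by 1.15 in WT (SE 0.26, adjusted p = 0.0164) and by 1.02 in Def6-/- (adjusted p = 0.0292) on the log2 scale.

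The 6 subunits of the helicase, Mcm2 to Mcm7, all had lower means at day 12, with log2 fold changes of -1.21 to -0.57 in WT and -1.23 to -0.59 in Def6-/- cells. Mcm5 was at 44.2 and 77.0 in the 2 WT day 0 libraries, 26.1 and 23.5 at WT day 12, 51.2 and 64.0 at Def6-/- day 0 and 23.0 and 27.3 at Def6-/- day 12. Its libraries did not overlap between days, and it fell in both genotypes, by 1.21 in WT (adjusted p = 0.0192) and by 1.16 in Def6-/- (adjusted p = 0.0234). Mcm2 was at 40.3 and 96.8 in the 2 WT day 0 libraries, 34.2 and 31.0 at WT day 12, 72.6 and 87.5 at Def6-/- day 0 and 36.5 and 30.7 at Def6-/- day 12. Replicate 1 of WT day 0 stood low for Mcm2, close to the day 12 libraries, and the log2 fold change of -0.92 ± 0.36 in WT did not pass (adjusted p = 0.113), while in Def6-/- Mcm2 fell by 1.23 (adjusted p = 0.048). Mcm6 fell in WT (-0.81 ± 0.24, adjusted p = 0.0473) and stood at -0.80 ± 0.24 in Def6-/- (adjusted p = 0.0539). Mcm3 had the reverse calls, -0.93 ± 0.30 in WT (adjusted p = 0.063) and a fall of 1.10 in Def6-/- (adjusted p = 0.0372). The log2 fold changes of Mcm4 and Mcm7 lay between -0.62 and -0.57 in both genotypes and passed in neither. The helicase partners Cdc45 and Gins2 stood at -1.05 and -0.77 in WT and -0.73 and -0.76 in Def6-/-, none of which passed.

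The E-type cyclins, which bring cells into S phase, both fell in WT cells. Ccne1 was at 35.5 and 45.6 in the 2 WT day 0 libraries, 19.8 and 10.9 at WT day 12, 30.8 and 35.1 at Def6-/- day 0 and 11.9 and 17.5 at Def6-/- day 12. It fell by 1.39 in WT (adjusted p = 0.0184) and by 1.13 in Def6-/- (adjusted p = 0.044). Ccne2 was at 31.2 and 38.9 in the 2 WT day 0 libraries, 13.2 and 10.9 at WT day 12, 22.2 and 32.7 at Def6-/- day 0 and 11.9 and 15.8 at Def6-/- day 12. Its day 12 libraries were below its day 0 libraries in both genotypes, and it fell by 1.46 in WT (adjusted p = 0.00793) and stood at -0.93 ± 0.28 in Def6-/- (adjusted p = 0.0562).

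Of the genes that supply nucleotides, Rrm2, the regulated subunit of ribonucleotide reductase, was at 69.9 and 119.8 in the 2 WT day 0 libraries, 35.0 and 28.9 at WT day 12, 70.7 and 112 at Def6-/- day 0 and 30.4 and 28.6 at Def6-/- day 12. All day 12 libraries lay at 35.0 or below and all day 0 libraries at 69.9 or above, and Rrm2 fell by 1.495 in WT (adjusted p = 0.0105) and by 1.56 in Def6-/- (adjusted p = 0.00846), the largest fall of the S phase list there. Its partner Rrm1 moved less, at -0.40 ± 0.26 in WT (adjusted p = 0.325) and -0.52 ± 0.26 in Def6-/- (adjusted p = 0.219). Tyms, the thymidylate synthase, was at 13.8 and 28.6 in the 2 WT day 0 libraries, 11.2 and 11.3 at WT day 12, 11.3 and 18.1 at Def6-/- day 0 and 18.9 and 14.1 at Def6-/- day 12. It stood at -0.77 ± 0.38 in WT and 0.18 ± 0.38 in Def6-/-, passing in neither (adjusted p = 0.192 and 0.808), and its groups overlapped in Def6-/- cells. Tk1, which salvages thymidine, was at 17.8 and 24.4 in the 2 WT day 0 libraries, 15.8 and 15.5 at WT day 12, 12.4 and 18.7 at Def6-/- day 0 and 15.6 and 19.2 at Def6-/- day 12. It stood at -0.39 ± 0.29 in WT and 0.17 ± 0.29 in Def6-/-, so Tyms and Tk1 were the 2 S phase genes whose Def6-/- mean was not lower at day 12.

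The clamp Pcna was at 78.9 and 81.6 in the 2 WT day 0 libraries, 45.6 and 41.0 at WT day 12, 57.6 and 73.6 at Def6-/- day 0 and 42.7 and 47.0 at Def6-/- day 12. It fell by 0.88 in WT (adjusted p = 0.0161), and in Def6-/- the difference of -0.53 ± 0.20 did not pass (adjusted p = 0.107). Chek1, the replication checkpoint kinase, was at 5.53 and 9.89 in the 2 WT day 0 libraries, 2.87 and 3.77 at WT day 12, 6.02 and 8.86 at Def6-/- day 0 and 2.46 and 5.55 at Def6-/- day 12. Its day 12 libraries were the lower ones in each genotype, at -0.97 ± 0.42 in WT and -0.80 ± 0.42 in Def6-/- without passing (adjusted p = 0.151 and 0.246), on 6 to 28 reads. E2f1, the transcription factor over this group, was at 40.6 and 43.1 in the 2 WT day 0 libraries, 36.7 and 41.5 at WT day 12, 35.0 and 46.7 at Def6-/- day 0 and 31.6 and 28.2 at Def6-/- day 12. It changed least in WT cells, -0.10 ± 0.22 (adjusted p = 0.792), and was the only S phase gene whose WT libraries overlapped between days.

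In Def6-/- cells 17 of 19 S phase genes had a lower mean at day 12, with a median log2 fold change of -0.80 against 0.01 over all genes tested, and 7 fell at an adjusted p under 0.05, where 4.79% of all genes fell. Libraries did not overlap for 16 of 19, each lower, against 32.4% of all genes. Both genotypes shared 5 of the calls: Ccne1, Cdc6, Cdt1, Mcm5 and Rrm2. A call in 1 genotype and not in the other is not a difference between them, since none passed the test of that difference below. The counts leaned on single libraries. When 1 of the 8 libraries was left out, they moved down or up. The share of all genes that fell also moved down or up in those fits. With only the 4 libraries compared in the fit, 2 genes fell in WT and 11 in Def6-/-, where 1.64% and 13.3% of all genes fell. With a filter at 5 CPM the Def6-/- count was 4, where 4.75% of all genes fell. The median change stayed below 0 in each of these fits, from -1.27 to -0.60 in WT and from -1.06 to -0.52 in Def6-/- when single libraries were left out.

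**Figure D2:**
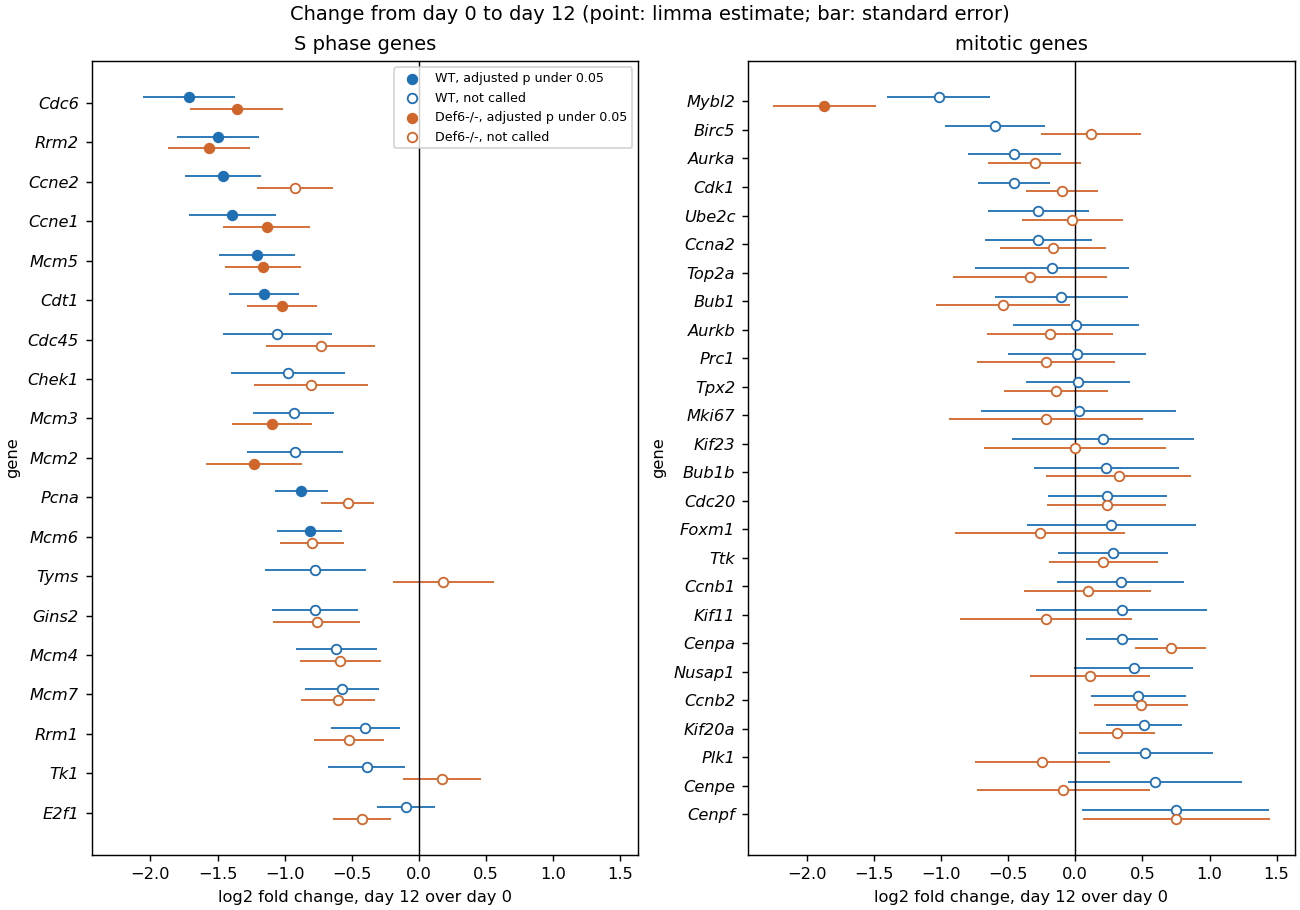
Log2 fold change from day 0 to day 12 of each S phase gene (left) and mitotic gene (right) in WT (blue) and Def6-/- cells (orange), with bars of 1 standard error; filled points have an adjusted p under 0.05. S phase points run from -1.71 to 0.18 and 15 of them are filled, while mitotic points lie on both sides of 0 and only Mybl2 in Def6-/- cells is filled.

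Further S phase genes that are not members moved the same way. Of a list of 50 (origin recognition, primase, polymerases, clamp loader, chromatin assembly), 48 had a lower mean at day 12 in WT and 45 in Def6-/-, with medians of -0.64 and -0.65. In WT cells 8 of the 50 fell, where 5.63% of all genes did. They were Rpa1, a subunit of the protein that coats single-stranded DNA (-1.07 ± 0.17, adjusted p = 0.00304), Hells, a chromatin remodeller (-1.59 ± 0.37, adjusted p = 0.0194), Dbf4, the activator of the Cdc7 kinase (-1.35 ± 0.35, adjusted p = 0.0294), and Dut, Exo1, Rfc5, Orc6 and Prim2. In Def6-/- cells 5 fell, where 4.79% of all genes did: Rpa1 (-1.13 ± 0.17, adjusted p = 0.00229), Wdhd1 (-1.48 ± 0.30, adjusted p = 0.0105), Hells (-1.46 ± 0.37, adjusted p = 0.0288), Pold1 and Mcm10. None of the 50 rose in either genotype.

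Mitotic genes showed no shared fall like that of the S phase genes, and differed more between the 2 libraries of day 0 than between the days. Their day change was imprecise. Its 95% interval lay within 2-fold either way for 2 of 26 mitotic genes in WT and 4 of 26 in Def6-/-. For Mki67 in WT it ran from -1.62 to 1.67 on the log2 scale. A fall as large as the S phase median of -0.92 was thus not excluded for that gene. In WT day 0, replicate 2 was above replicate 1 for all 26, by a median of 2.45-fold, and 15 of 26 were over 2-fold apart, against 9.11% of all genes tested. Def6-/- day 0 had replicate 2 above replicate 1 for 25 of 26 (all but Ttk), by a median of 1.74-fold, with 9 over 2-fold against 2.24% of all genes. The S phase genes leaned the same way with smaller ratios, 19 of 19 at a median of 1.40-fold and 18 of 19 at 1.30-fold. At day 12 the replicates stood closer, at medians of 1.19-fold in WT and 1.38-fold in Def6-/- with no mitotic gene over 2-fold, where 0.713% and 1.35% of all genes were. The labels give no batch or litter to the replicate numbers, and what set replicate 2 apart was not tested.

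**Figure D3:**
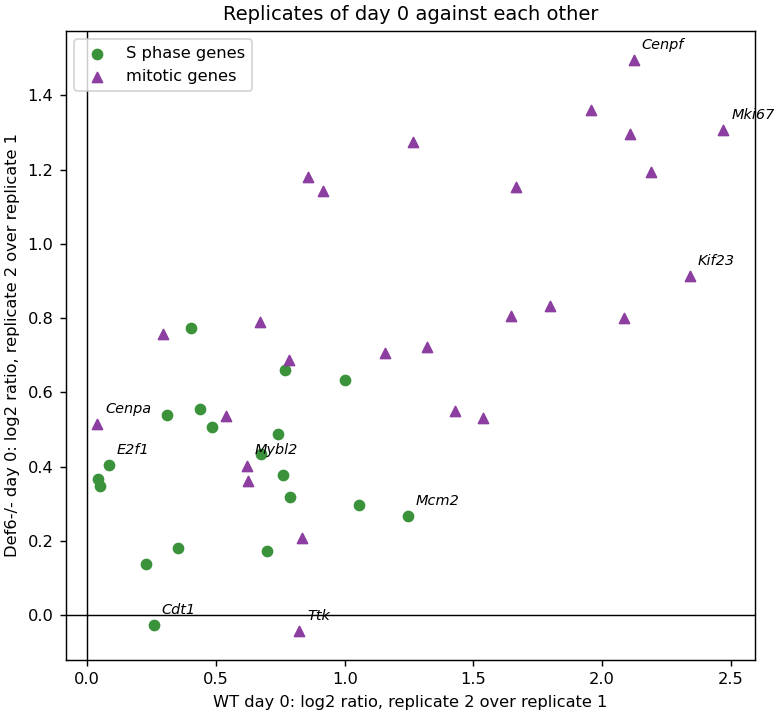
Log2 ratio of replicate 2 over replicate 1 at day 0 in WT (x axis) and Def6-/- cells (y axis) for the 19 S phase genes (green circles) and 26 mitotic genes (purple triangles). All points lie right of 0, all but Cdt1 and Ttk lie above 0, and the mitotic genes reach further, up to Mki67 on the x axis and Cenpf on the y axis.

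Mki67, which coats mitotic chromosomes and is the usual mark of cycling cells, had 63 and 403 reads in WT day 0, or 24.9 and 142 normalized CPM, and 42.9 and 108 in Def6-/- day 0. At day 12 it was at 62.6 and 59.5 in WT and 41.9 and 81.1 in Def6-/-. The lowest and the highest of the 8 values were thus the 2 libraries of WT day 0, with every day 12 library between them, and the log2 fold changes were 0.03 ± 0.72 in WT and -0.22 ± 0.72 in Def6-/- (adjusted p = 0.985 and 0.883). Top2a, the topoisomerase that untangles sister chromatids, was at 45.8 and 198 in the 2 WT day 0 libraries, 75.2 and 95.1 at WT day 12, 79.8 and 139.6 at Def6-/- day 0 and 71.4 and 97.3 at Def6-/- day 12. As for Mki67, WT day 0 held both the lowest and the highest value, and the days gave log2 fold changes of -0.17 ± 0.57 and -0.34 ± 0.57.

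**Figure D4:**
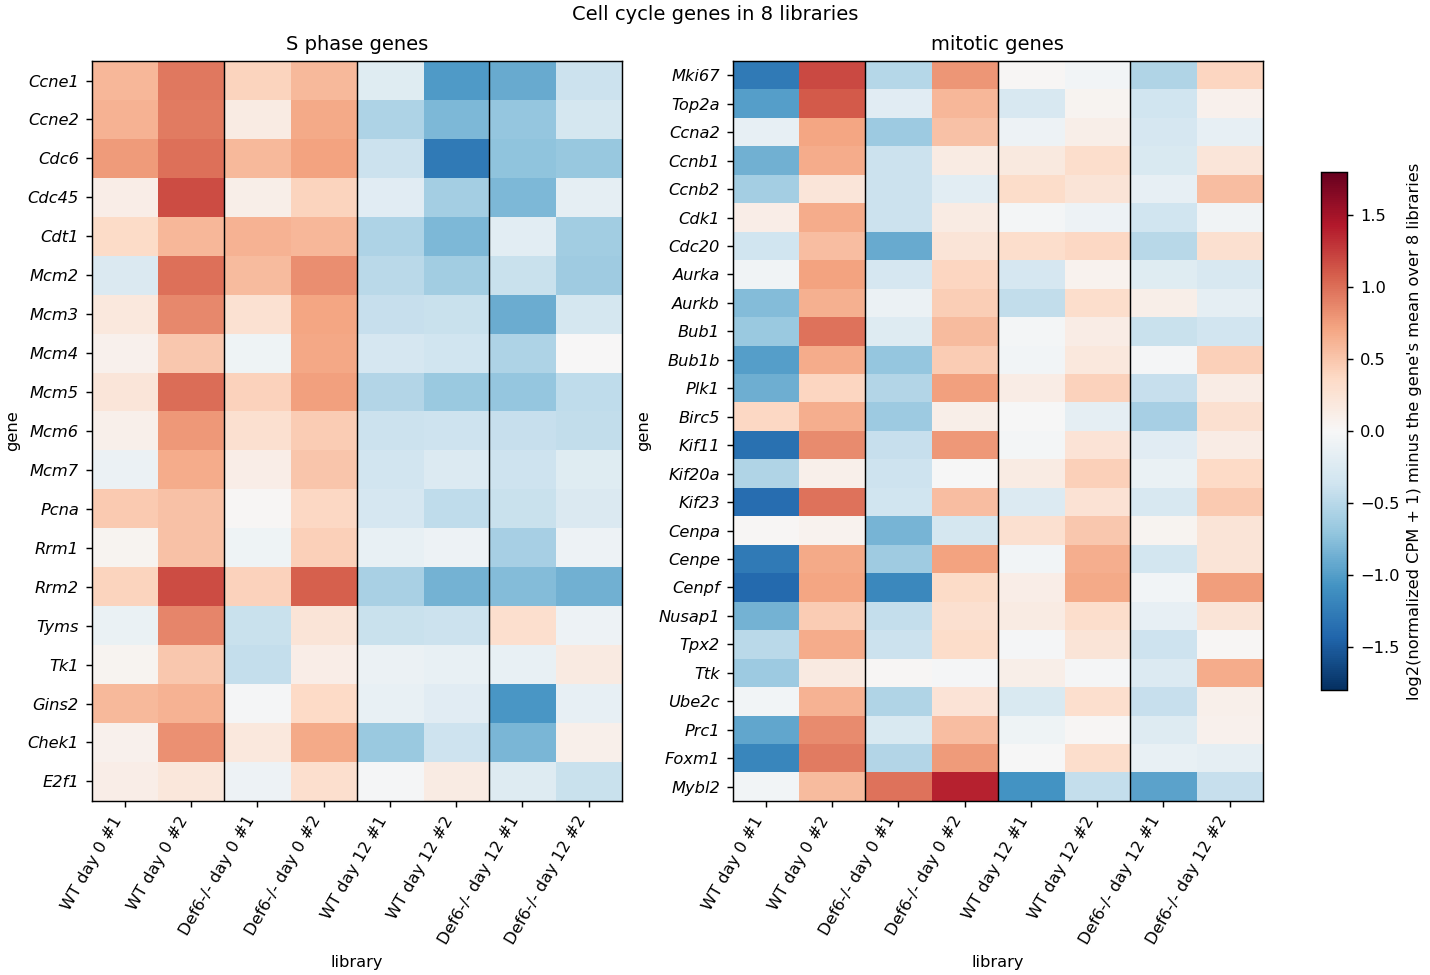
Level of each S phase gene (left) and mitotic gene (right) in each library, as log2(normalized CPM + 1) minus the gene's own mean over 8 libraries; red is above and blue below that mean, and # is the replicate number. The S phase panel changes from red to blue between the day 0 and day 12 columns, while the mitotic panel changes most between #1 and #2 of day 0.

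Among the cyclins and their kinase, Ccna2, which serves S phase and G2, was at 43.0 and 78.8 in the 2 WT day 0 libraries, 44.8 and 51.5 at WT day 12, 30.1 and 69.5 at Def6-/- day 0 and 38.6 and 43.1 at Def6-/- day 12. Ccnb1, the cyclin of mitotic entry, was at 5.92 and 19.1 in the 2 WT day 0 libraries, 13.2 and 14.7 at WT day 12, 8.65 and 12.9 at Def6-/- day 0 and 9.44 and 13.7 at Def6-/- day 12. Its kinase Cdk1 was at 41.0 and 60.1 in the 2 WT day 0 libraries, 36.7 and 35.2 at WT day 12, 28.6 and 41.9 at Def6-/- day 0 and 29.2 and 35.9 at Def6-/- day 12. For Ccna2 and Ccnb1 the days overlapped in both genotypes, and for Cdk1 the WT day 12 libraries lay just under both WT day 0 libraries. Their WT log2 fold changes were -0.27 ± 0.40, 0.34 ± 0.47 and -0.46 ± 0.27, and in Def6-/- cells -0.16, 0.09 and -0.10, none passing. Ccnb2 stood at 0.47 and 0.49.

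None of the mitotic kinases passed in either genotype. Plk1, the Polo kinase, was at 9.87 and 25.1 in the 2 WT day 0 libraries, 21.0 and 25.5 at WT day 12, 12.8 and 32.4 at Def6-/- day 0 and 14.0 and 20.9 at Def6-/- day 12. This gave a log2 fold change of 0.52 ± 0.50 in WT and -0.24 ± 0.50 in Def6-/-. Aurkb, the kinase of the chromosomal passenger complex, was at 9.08 and 26.1 in the 2 WT day 0 libraries, 11.8 and 20.52 at WT day 12, 15.05 and 22.5 at Def6-/- day 0 and 17.7 and 14.5 at Def6-/- day 12, a change of 0.00 ± 0.47 in WT, the smallest of any mitotic gene there. Birc5 (survivin), a subunit of that complex, was at 18.5 and 23.0 in the 2 WT day 0 libraries, 14.1 and 12.6 at WT day 12, 8.65 and 15.3 at Def6-/- day 0 and 9.03 and 17.5 at Def6-/- day 12. Its log2 fold change was -0.60 ± 0.37 in WT and 0.12 ± 0.37 in Def6-/-. Aurka, Bub1, Bub1b and Ttk, which act at the spindle poles and the spindle checkpoint, ranged from -0.46 to 0.28 in WT and from -0.54 to 0.32 in Def6-/-. The ubiquitination genes Cdc20 and Ube2c, which drive exit from mitosis, stood at 0.24 and -0.28 in WT.

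Of the spindle and centromere genes, Cenpf had the largest WT difference upwards of the mitotic list, at 7.10 and 34.3 in the 2 WT day 0 libraries, 22.4 and 33.5 at WT day 12, 8.65 and 26.2 at Def6-/- day 0 and 19.7 and 35.0 at Def6-/- day 12. Replicate 1 of both day 0 groups was low and replicate 2 was near the day 12 libraries, and the changes of 0.75 ± 0.70 and 0.75 ± 0.70 did not pass (adjusted p = 0.499 and 0.532). Cenpa, the histone variant of centromeres, was at 15.8 and 16.3 in the 2 WT day 0 libraries, 19.2 and 22.2 at WT day 12, 8.28 and 12.3 at Def6-/- day 0 and 16.0 and 18.4 at Def6-/- day 12. Its Def6-/- libraries did not overlap between days, and 0.71 ± 0.27 there had an unadjusted p of 0.0265 and an adjusted p of 0.11. Kif23, a motor of the midbody, was at 5.13 and 30.03 in the 2 WT day 0 libraries, 12.3 and 18.01 at WT day 12, 11.3 and 22.1 at Def6-/- day 0 and 11.9 and 20.9 at Def6-/- day 12. Its Def6-/- change of -0.00 ± 0.68 was the smallest of the mitotic list there, on 13 to 85 reads. Cenpe, a kinetochore motor, stood at 0.59 in WT and -0.09 in Def6-/-. The other spindle genes (Kif11, Kif20a, Nusap1, Tpx2 and Prc1) lay between 0.01 and 0.51 in WT and between -0.22 and 0.31 in Def6-/-.

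The 2 transcription factors of the mitotic list differed. Foxm1, which activates G2 and M genes, was at 9.08 and 42.4 in the 2 WT day 0 libraries, 21.5 and 27.2 at WT day 12, 14.7 and 37.5 at Def6-/- day 0 and 19.7 and 19.2 at Def6-/- day 12. Its values spread like those of Mki67, and 0.27 ± 0.63 in WT and -0.26 ± 0.63 in Def6-/- did not pass. Mybl2 (B-Myb), which joins MuvB on mitotic promoters but is itself a known E2F target made from late G1 on, was at 6.31 and 10.2 in the 2 WT day 0 libraries, 2.58 and 4.61 at WT day 12, 13.9 and 18.7 at Def6-/- day 0 and 2.87 and 4.70 at Def6-/- day 12. All 4 day 12 libraries were below all 4 day 0 libraries, as for Cdc6 and Rrm2. Mybl2 fell by 1.87 in Def6-/- (SE 0.38, adjusted p = 0.0108), and -1.02 ± 0.38 in WT had an unadjusted p of 0.027 and an adjusted p of 0.104. Day 12 counts were 7 to 11 reads.

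Over the whole mitotic list no gene fell or rose in WT cells at an adjusted p under 0.05 in limma, where 5.63% and 12.7% of all genes did; at an unadjusted p under 0.05 the list had 1 gene, Mybl2, and edgeR and DESeq2 also gave 0 calls. The median WT log2 fold change was 0.22, with 18 genes above 0 and 8 below. Libraries overlapped between days for 20 of 26, with 3 genes clear of overlap upwards (29.3% of all genes were) and 3 downwards (26.6%). In Def6-/- cells Mybl2 was the 1 gene of 26 that fell, where 4.79% of all genes did, and none rose, where 12% did. The median there was -0.09 with 16 genes below 0, and 22 of 26 overlapped, with 2 clear upwards (35.2% of all genes) and 2 downwards (32.4%). The Mybl2 call was lost without Def6-/- day 0 replicate 2 or Def6-/- day 12 replicate 1. The sign of these medians depended on which day 0 library was used. Without replicate 1 of WT day 0 the WT median was -0.66 and 4 of 26 mitotic genes fell, where 9.67% of all genes did, and without its replicate 2 the median was 0.85 and 13 rose, where 24.6% of all genes did. With both day 0 libraries of number 1 left out, a choice made after seeing the data, 10 mitotic genes fell in WT and 8 in Def6-/-, and 15 and 14 S phase genes did, where 10.8% and 9.79% of all genes fell. With both of number 2 left out instead, 15 mitotic genes rose in WT, where 25.4% of all genes did. Only 3 rose in Def6-/-, where 18% of all genes did, which is no more than the share of all genes. In that fit 1 mitotic gene fell in Def6-/-, and 8 and 6 S phase genes fell, where 22.4% and 12.6% of all genes did. In edgeR and DESeq2 the WT mitotic median was -0.10 in both.

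A list of 65 further mitotic genes also gave no calls in WT. In limma its median leaned slightly downwards there where that of the members leaned upwards, a lean the members did not keep in edgeR or DESeq2. In WT 38 had a lower and 27 a higher mean at day 12 (median -0.04), in Def6-/- 40 and 25 (median -0.13), and none passed in either genotype in limma. At an unadjusted p under 0.05 in limma there were 4 lower and 0 higher in WT, where 1683 and 2336 of 12348 genes tested were. In Def6-/- there were 3 lower and 1 higher, where 1413 and 2301 were. Libraries did not overlap between days for 10 of 65 downwards and 0 upwards in WT, where 26.6% and 29.3% of all genes did not. The Def6-/- counts were 10 and 5, where the shares were 32.4% and 35.2%. In day 0, replicate 2 was over 2-fold above replicate 1 for 36 of 65 in WT and 22 of 65 in Def6-/-, medians of 2.13-fold and 1.66-fold.

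The balance of the 2 lists was also taken within each library. The mean of the mitotic list minus that of the S phase list, on the log2 scale, was -1.24 and -0.47 in WT day 0 and -0.93 and -0.49 in Def6-/- day 0. At day 12 it was -0.04 and 0.36 in WT and -0.09 and 0.12 in Def6-/-. All 4 day 12 libraries were above all 4 day 0 libraries, so that the mitotic list stood higher relative to the S phase list at day 12 in each genotype.

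Few cell cycle genes passed between genotypes. At day 0, by an unadjusted p under 0.05 and over 1.2-fold, 2 of 45 members were called in Def6-/- against WT, 1 higher and 1 lower, where 0.988% and 1.31% of all genes were. Mybl2 was higher in Def6-/- by 0.92 ± 0.38 (unadjusted p of 0.0407 from limma, adjusted p = 0.908), with 13.9 and 18.7 normalized CPM against 6.31 and 10.2. Cenpa was lower, at -0.62 ± 0.27 (unadjusted p of 0.0466 from limma, adjusted p = 0.908), with 8.28 and 12.3 against 15.8 and 16.3. Neither gene's libraries overlapped between genotypes, where 10.9% of all genes were clear of overlap upwards and 11.7% downwards. Neither passed an adjusted p, by which 0.0081% of all genes, a single gene, was lower. With both libraries of each group compared kept, other settings called 0 to 3 members, where 0.81% to 2.92% of all genes were called. When single libraries were left out, the median difference ran from -0.39 to 0.13 for S phase genes and from -0.74 to 0.81 for mitotic genes. With all libraries the medians were -0.06 for S phase genes and 0.04 for mitotic genes. A lower mean in Def6-/- was seen for 15 of 19 and 11 of 26, where 6481 of 12348 genes tested had one. Of the S phase genes 4 were clear of overlap downwards and 1 upwards, and of the mitotic genes 2 and 1. The S phase gene with the largest absolute difference was Tyms at -0.45 ± 0.38, and the mitotic genes reached -0.79 ± 0.37 for Birc5 (adjusted p = 0.908), while the smallest were Chek1 at -0.02 and Bub1 at 0.01. The 95% interval of the difference lay within 2-fold either way for 12 of 19 S phase genes and 3 of 26 mitotic genes. Of the 50 further S phase genes, 34 had a lower mean in Def6-/- at day 0. Clear of overlap were 11 downwards and 1 upwards, where 11.7% and 10.9% of all genes were. By the unadjusted rule 2 of the 50 were called lower, where 1.31% of all genes were. They were Rfc2, a clamp loader subunit, and Dtymk, the thymidylate kinase, at -0.54 ± 0.21 and -0.57 ± 0.25 (adjusted p = 0.908 for both).

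At day 12 no member was called between genotypes by the unadjusted rule in limma or at an adjusted p, with none called by edgeR or DESeq2 either, where 0.81% of all genes were higher and 0.591% lower (0.0081%, again 1 gene, at an adjusted p). When single libraries were left out, the median difference, Def6-/- minus WT, ran from -0.09 to 0.12 for S phase genes and -0.37 to 0.01 for mitotic genes. With all libraries the median log2 difference was 0.02 for S phase genes and -0.14 for mitotic genes. A lower mean in Def6-/- was seen for 9 of 19 and 21 of 26, where 6188 of 12348 genes tested had one. Of the mitotic genes 6 were clear of overlap downwards and 0 upwards, and of the S phase genes 2 and 1, where 15.9% and 16.8% of all genes were. The largest differences were Tyms upwards (0.50 ± 0.38) and Cdc20 downwards (-0.44 ± 0.44), and the smallest Mcm7 (-0.01) and Top2a (-0.02). The precision differed between the lists. The 95% interval of the difference lay within 2-fold either way for 16 of 19 S phase genes and for 7 of 26 mitotic genes. Each gene had 1 spread pooled over all 4 groups, so the distance between the day 0 replicates entered these intervals too. They do not measure the spread of the day 12 libraries alone. Mcm5, at 26.1 and 23.5 in WT and 23.0 and 27.3 in Def6-/-, had an interval of -0.62 to 0.66, and Mki67, at 62.6 and 59.5 and 41.9 and 81.1, had -1.71 to 1.58. A 2-fold difference in a mitotic gene such as Mki67 was thus not detectable in this fit.

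The interaction, which asks whether the day change differed between genotypes, called no member in limma, edgeR or DESeq2, where 0.696% of all genes were called upwards and 0.421% downwards in limma. The largest estimates were Tyms (0.95 ± 0.53, adjusted p = 1) for the S phase list and Mybl2 (-0.85 ± 0.54, adjusted p = 1) for the mitotic list, and the smallest were Gins2 (0.01) and Cdc20 (-0.00). Intervals were wide, and for 0 of 26 mitotic genes did the 95% interval lie within 2-fold either way. Without WT day 0 replicate 2 the interaction called 11 of 45 members where it called 27% of all genes, so this count is not particular to the members. Without its replicate 1 it called 2, against 3.52% of all genes.

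Brakes and accelerators of the cell cycle were read from 2 lists. The first held 25 genes of inhibition, Mdm2 among them, and the second 10 G1 cyclins and kinases. Of the 25 genes 3 rose and 6 fell in WT, and 3 rose and 4 fell in Def6-/-. Of all genes 12.7% and 5.63% rose and fell in WT and 12% and 4.79% in Def6-/-, so the rises were at the share of all genes. Cdkn1c (p57), an inhibitor of cyclin dependent kinases, was at 33.5 and 32.2 in the 2 WT day 0 libraries, 279 and 271 at WT day 12, 18.1 and 30.7 at Def6-/- day 0 and 290.3 and 259.6 at Def6-/- day 12. It rose by 3.03 ± 0.24 in WT (adjusted p = 0.000113) and 3.49 ± 0.24 in Def6-/- (adjusted p = 5.96e-05), with no overlap of days. Cdkn2a, which encodes p16 and p19ARF, was at 26.0 and 10.6 in the 2 WT day 0 libraries, 54.8 and 49.4 at WT day 12, 19.2 and 14.0 at Def6-/- day 0 and 43.5 and 65.7 at Def6-/- day 12. It rose by 1.58 ± 0.39 and 1.65 ± 0.39 (adjusted p = 0.0242 and 0.0214). Cdkn2b (p15) rose in Def6-/- (0.88 ± 0.24, adjusted p = 0.0395) and stood at 0.68 ± 0.24 in WT (adjusted p = 0.0886), and Ccng2 rose in WT (0.999 ± 0.28, adjusted p = 0.0411).

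Of the inhibitors that fell, Cdkn1a (p21) was at 1041 and 833 in the 2 WT day 0 libraries, 529 and 541 at WT day 12, 752 and 823 at Def6-/- day 0 and 492 and 516 at Def6-/- day 12. It fell by 0.80 in WT (adjusted p = 0.0155) and 0.64 in Def6-/- (adjusted p = 0.0392). Trp53 and Ccng1 (cyclin G1) fell in both genotypes, and so did Mdm2, which marks p53 for breakdown and is not itself an inhibitor. Mdm2 fell by 0.94 and 0.92 (adjusted p = 0.00608 and 0.00696) and Ccng1 by 0.94 and 1.02 (adjusted p = 0.00618 and 0.00445). Gadd45a and Gadd45g fell in WT (-1.19 and -1.99) and did not pass in Def6-/- (-0.60 and -1.53), without a call in the interaction, and Gadd45g stood at 554 and 163 in WT day 0, its replicate 1 being the highest of all libraries. Cdkn1b (p27), Cdkn2c (p18) and Cdkn2d (p19) passed in neither genotype, at 0.12, 0.84 and -0.13 in WT and 0.35, 0.53 and 0.07 in Def6-/-.

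**Figure D5:**
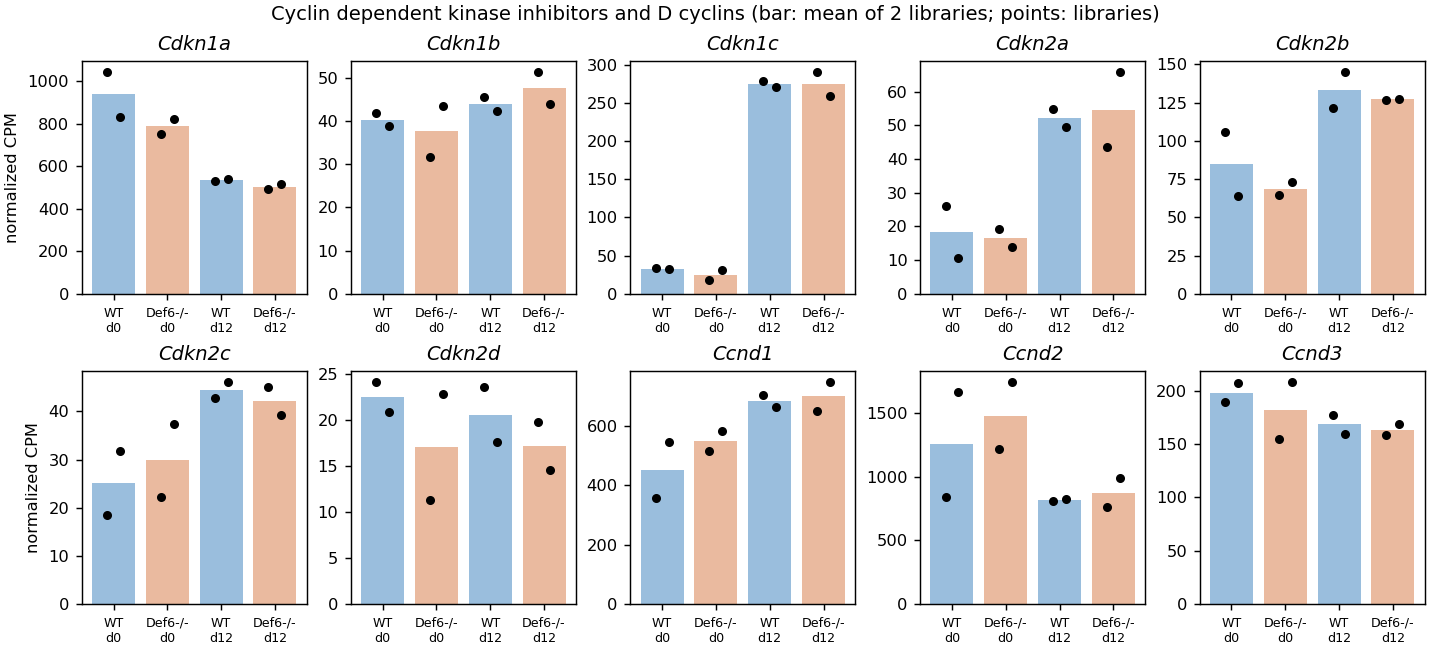
Normalized CPM of 7 cyclin dependent kinase inhibitors and 3 D cyclins, with bars for the mean of 2 libraries (WT blue, Def6-/- orange) and black points for each library; d0 and d12 are the days. Cdkn1c and Cdkn2a are higher and Cdkn1a lower in all 4 day 12 libraries than in all 4 day 0 libraries.

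The D cyclins, which start G1 progress, passed in neither genotype. Ccnd1 was at 355 and 545 in the 2 WT day 0 libraries, 704 and 664 at WT day 12, 516 and 583 at Def6-/- day 0 and 651 and 747 at Def6-/- day 12, with all day 12 libraries above all day 0 libraries and log2 fold changes of 0.63 ± 0.22 in WT and 0.34 ± 0.22 in Def6-/- (adjusted p = 0.0847 and 0.352). Ccnd2 was at 838 and 1668 in the 2 WT day 0 libraries, 811 and 827 at WT day 12, 1217 and 1741 at Def6-/- day 0 and 759 and 988 at Def6-/- day 12. It had the spread of day 0 replicates seen in the mitotic genes. Ccnd3 stood at -0.23 ± 0.19 and -0.14 ± 0.19. Of the 9 G1 genes tested, Mycn being under the filter, none passed in limma. At an unadjusted p under 0.05 in WT 1 was higher and 2 lower, where 2336 and 1683 of 12348 genes tested were.

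Macrophage markers moved with the day. Of 15 macrophage markers 13 rose in WT and 12 in Def6-/-, where 12.7% and 12% of all genes did, and the summed level of 14 of them was 199 to 423 normalized CPM at day 0 and 3166 to 6392 at day 12, highest in WT day 12 replicate 1. Lyz2 led, at 246 and 139.6 in the 2 WT day 0 libraries, 4049 and 1926 at WT day 12, 87.7 and 163 at Def6-/- day 0 and 2483 and 2155 at Def6-/- day 12. Ptprc was left out of the sum, because 3 of its 8 values did not come out as whole reads. Of 8 endothelial markers 1 passed the filter, with Emcn and Tie1 at 0 in all libraries and a summed level of 5.65 to 14.7, and the red cell genes were at 0 but for a single read of Alas2. At day 0 the macrophage sum was 423 and 255 in WT replicates 1 and 2 and 199 and 316 in Def6-/-, so that replicate 2 was the lower one in WT and the higher one in Def6-/-. Macrophages can divide too, and their part in the cell cycle values was not tested.

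A further limit is shared reads. For 10 members an exon overlaps that of another gene (Ccna2 with Exosc9, Ccne2 with Ints8, Cdc20 with Elovl1, Gins2 with Gse1, Kif20a with Cdc23, Mcm7 with Cops6 and Ap4m1, Nusap1 with Oip5, Prc1 with Rccd1, Tk1 with Afmid, Ube2c with Tnnc2), each of these on the opposite strand, and Mcm7 also holds the microRNA genes Mir25 and Mir93 on its own strand. The sources do not state that counting used strand, so reads of these pairs cannot be told apart.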

How the data were processed

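RNA-seq was made from poly-A RNA of 8 cultures, 4 groups of 2. Per the labels and methods, the authors aligned reads to mm10 (HISAT2), took gene counts from HTSeq and deposited edgeR's CPM values, 1 file a library; fastp is also named. Versions and the strand setting are not given in the sources used here. The deposited CPM are scaled to all reads, of which 28.8% to 35.3% lay on genes. Depth was recovered from their steps: 99.957% of 114821 values above 0 were whole reads within 0.01, and the 49 others lay in 9 genes, none a member.

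Reads on genes were rescaled with TMM factors (edgeR 4.0.16), and log2(normalized CPM + 1) was fitted with limma 3.58.1 (R 4.3.3; 4 group means, trend, two-sided, Benjamini-Hochberg) over 12348 genes with a mean of at least 1 CPM in a group. Day calls used an adjusted p under 0.05, and genotype and interaction calls an unadjusted p under 0.05 and over 1.2-fold, after the study's rule. A count test was not the main test, because the files hold CPM. Alternatives were edgeR's quasi-likelihood test and DESeq2 1.42.0 on the recovered reads, CPM as deposited, DESeq2 size factors, pseudocounts of 0.1 and 0.5, no filter or one at 5 CPM, only the groups compared, a replicate block, and leaving out each library or 2 libraries. On the recovered reads edgeR called 1533 genes higher and 780 lower between days in WT, and 1434 and 549 in Def6-/-, where limma called 1565, 695, 1485 and 591. The fits were tested on simulated data.

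The members and lists were chosen with earlier results of these data known. Values in every library were given for 20 members listed by name, for the largest and smallest change in each list and comparison, and for members called between genotypes. Of other lists, those with the smallest p, the cyclin dependent kinase inhibitors and the D cyclins were named. Promoters were those of the 3 largest WT falls in each list among genes with an entry, and in each list the one with the most matches of its own motifs, added after matches were seen. Other genes were named after their values were seen. Intervals of counts were not used, since PCR reads without molecular identifiers are not independent molecules.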

Additional observations from a re-analysis of the deposited data

How the results depend on the processing

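S phase genes had a lower median at day 12 under every setting tried, in both genotypes. Counts of calls depended on the setting, and the cause was not tested. Genotype calls at day 0 (2 members) became 1 with edgeR on recovered reads, CPM as deposited, a pseudocount of 0.1, no filter or a filter at 5 CPM, and 0 with DESeq2 or with only the groups compared. That last setting gave 2 S phase genes lower in WT, 11 in Def6-/- and 1 member between genotypes at day 12. By the same rules 1.64%, 13.3% and 4.49% of all genes were called, and the interaction could not be fitted in it. The filter at 5 CPM gave 4 S phase genes lower in Def6-/-, where 4.75% of all genes were. Leaving out 1 library at a time, where the lone library is assumed to vary like the other groups, S phase calls ran from 0 to 13 in WT and 0 to 12 in Def6-/-, mitotic calls lower from 0 to 4 and 0 to 1, mitotic calls higher from 0 to 13 and 0 to 1, genotype calls from 0 to 13 at day 0 and 0 to 1 at day 12, and interaction calls from 0 to 11. Both of these highest values of 13 and 11 came without WT day 0 replicate 2, where 37.1% and 27% of all genes were called, and 13 also without its replicate 1, where 4.45% were. Estimates that changed sign while called ran, over those fits, from -0.89 to 0.91 for Prc1 and -1.21 to 0.87 for Top2a in WT between days, from -1.05 to 1.42 for Mki67, -0.90 to 1.19 for Top2a, -0.81 to 0.83 for Bub1 and -0.71 to 1.09 for Prc1 between genotypes at day 0, and from -1.21 to 0.88 for the interaction of Top2a. With both day 0 libraries of number 1 left out, 15 and 14 S phase genes and 10 and 8 mitotic genes fell in WT and Def6-/-, genotype calls were 1 at day 0 and 1 at day 12, the interaction had 1, and Mki67 (-1.21), Kif11 (-0.75), Prc1 (-0.89) and Foxm1 (-0.78) turned to falls in WT. With both of number 2 left out, the median mitotic log2 fold change was 0.85 in WT and 0.39 in Def6-/-, and Top2a turned to 0.87 in WT. In the fit without number 1, 2.93% of all genes were called between genotypes at day 0, 4.39% at day 12 and 2.93% in the interaction. The genotype and interaction calls among members in that fit were thus no more than the share of all genes. Calls in either fit rest on 1 library in each day 0 group. Both were chosen after seeing the data. The labels do not say whether same-numbered libraries share more than a number, and this was not tested. The correlations of their deviations were 0.327 between the 2 day 0 groups, 0.0881 and 0.152 between days and 0.0368 at day 12. A replicate block gave 9 and 9 S phase genes lower in WT and Def6-/-, where 6.95% and 5.64% of all genes were. It gave 1 mitotic gene lower in WT, and 3 genotype calls at day 0, where 2.92% of all genes were called. Over all genes at day 0, 43% of genotype calls were higher in Def6-/-, against 32.3% with edgeR, 16.5% with DESeq2 and 72.3% on CPM as deposited. With 2 libraries a group and a spread pooled over all groups, mitotic differences under 2-fold were mostly not detectable.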
